A study of Mus musculus with 6 samples.

Results

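The genes described here load peptides onto MHC class I molecules or make the immunoproteasome that cuts those peptides. They were *B2m*, *Tap1*, *Tap2*, *Tapbp*, *Tapbpl*, *Psmb8*, *Psmb9*, *Psmb10*, *Erap1* and *Nlrc5*, taken by gene name from tables of read counts and FPKM, and they made up 10 of the 51826 genes in those tables. FPKM is a level adjusted for the length of the transcript and the size of the library. The data were 6 bulk RNA sequencing libraries of polyA RNA from the cortex of male BALB/c mice, 3 from *Lgmn*+/+-IR mice and 3 from *Lgmn*-/--IR mice. All 6 mice had received a single X-ray dose of 10 Gy to the whole brain, and the cortex was taken on day 3. *Lgmn* encodes asparagine endopeptidase (AEP, legumain), a lysosomal protease that cuts after asparagine. The comparison addressed how loss of AEP changes the transcripts of the irradiated cortex.

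The *Lgmn*-/- mice were *Lgmn* flox/flox carrying Cre, from 1 targeted ES cell clone injected into BALB/c blastocysts. The cells in which the Cre was active and the strain of the ES cells were not given in the sources used here, nor was the Cre status of the *Lgmn*+/+ mice. Every difference below is between genotypes of irradiated mice, as unirradiated cortex was not analysed here. Per the study's methods, littermates of one sex were put into experimental groups at random. Genotype, by which the groups here differ, cannot be assigned at random, and which of these samples share a litter was not given. The p values set each difference between genotypes against the spread between these samples.

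MHC class I molecules show peptides from inside the cell to CD8 T cells. The proteasome cuts proteins into peptides, the TAP1-TAP2 transporter pumps them into the endoplasmic reticulum, and ERAP1 trims them there. Tapasin, calreticulin and ERp57 hold the empty heavy chain and its light chain, beta-2-microglobulin, until a peptide fits. Interferon raises most of these genes together and replaces the catalytic subunits of the constitutive proteasome with those of the immunoproteasome. In the resting brain, microglia and endothelial cells are known for higher class I expression than neurons.

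Total counts ran from 41874462 to 46829441 per library, and 18345 genes had enough counts to be tested, all 10 genes described here among them. In the quasi-likelihood test of edgeR with Benjamini-Hochberg adjustment, 611 genes differed between genotypes at an adjusted p under 0.05, or 3.33% of those tested. *Lgmn* itself had 5558, 5528 and 5775 counts in *Lgmn*+/+-IR, against 3703, 3269 and 4109 in *Lgmn*-/--IR. It was therefore lower in every library labelled knockout (129 ± 1.66 against 82.5 ± 11.6 CPM, counts scaled to library size, mean ± SD, n = 3, edgeR adjusted p = 0.0315) but not absent, and the call was lost under 7 of 14 other settings. The counts cover the whole gene and the exons that the deletion removed are not named in the sources used here. The study reported genotyping from tail DNA and, by immunoblot, loss of the AEP protein band in *Lgmn*-/- cortex. The 5 erythroid genes listed (4 globins and *Alas2*) all rose, with calls lost under 2 to 8 of 14 other settings and a summed level of 7.59 to 15.8 CPM in *Lgmn*+/+-IR and 234 to 2273 CPM in *Lgmn*-/--IR. The part of blood in the results below was not tested.

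None of the 10 genes passed the adjusted threshold in the edgeR test. At an unadjusted p under 0.05 there was 1, *B2m*, against 18.6% of all genes tested, and DESeq2 called the same 1 gene at an adjusted p under 0.05, while limma-voom called 0. Over all genes that each tested, DESeq2 called 6.18% and limma-voom 3.24%. The libraries of both genotypes did not overlap for 3 of the 10, *B2m* and *Tapbp* being higher in *Lgmn*-/--IR and *Tapbpl* lower, against 25.7% of all genes tested. The log2 fold change was positive for 6 of 10, or 60% of them, with a median of 0.11, beside 48.3% and a median of −0.01 over all genes tested. The members as a group therefore sat near the background of the table. *B2m* was the only one whose 95% interval left 0.

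**Figure D1:**
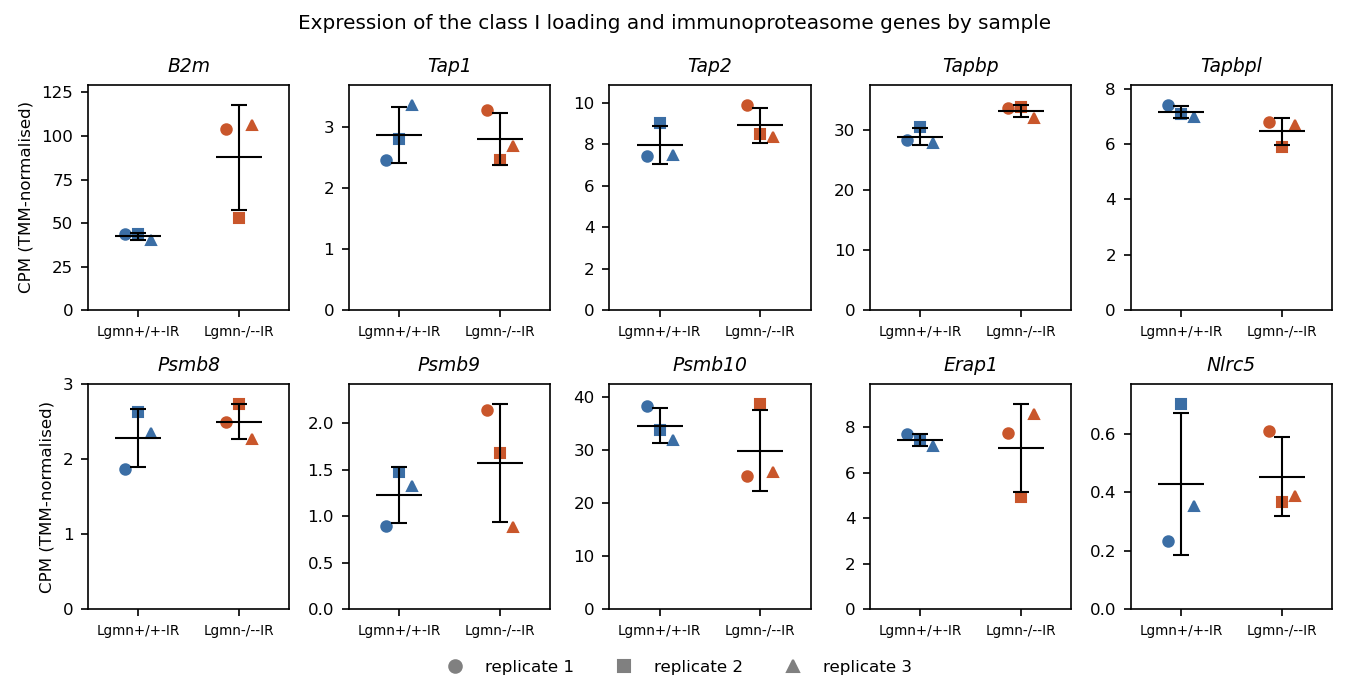
TMM-normalised CPM of the 10 genes in each of 6 libraries, by genotype. Markers are replicates, the bar is the mean and the whisker the SD (n = 3), and each axis starts at 0. *B2m* stands at 40.2 to 43.7 CPM in *Lgmn*+/+-IR and at 53.1 to 106 CPM in *Lgmn*-/--IR, while the groups overlap for 7 genes.

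*B2m* (ENSMUSG00000060802) encodes beta-2-microglobulin, the light chain that every classical class I molecule needs to reach the cell surface. It had 1862, 1869 and 1827 counts in *Lgmn*+/+-IR against 4619, 2466 and 4659 counts in *Lgmn*-/--IR. All 3 *Lgmn*-/--IR libraries were above all 3 *Lgmn*+/+-IR libraries, and replicate 2 of *Lgmn*-/--IR lay nearest to them. In CPM the values were 43.6, 43.7 and 40.2 against 104, 53.1 and 106, giving 42.5 ± 2.00 and 87.8 ± 30.0 (mean ± SD, n = 3). The SD was 4.72% of the mean in *Lgmn*+/+-IR and 34.2% in *Lgmn*-/--IR. The level was 2.07-fold higher in *Lgmn*-/--IR (95% interval of the fitted fold, 1.37 to 3.11), with a log2 fold change of 1.05 (SE 0.25) and an edgeR adjusted p of 0.0786. It thus missed the threshold in the main test. With replicate 2 of *Lgmn*-/--IR left out, the log2 fold change was 1.31 and the edgeR adjusted p 0.00247. That omission also gave 500 calls over all genes tested, against 223 to 369 with any other library left out. DESeq2 on all 6 libraries gave *B2m* a log2 fold change of 1.06 with an adjusted p of 0.000773. FPKM gave the same picture, with 45.4, 46.0 and 41.4 in *Lgmn*+/+-IR against 106, 56.3 and 102 in *Lgmn*-/--IR. In bulk tissue, more cells that carry *B2m* and more *B2m* RNA per cell cannot be told apart.

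The levels of other cells' markers stand beside *B2m* as follows. The summed level of 6 endothelial markers was 218, 138 and 197 CPM in *Lgmn*-/--IR replicates 1, 2 and 3, so replicate 2 was lowest there as it was for *B2m*, but it was 135 to 191 CPM in *Lgmn*+/+-IR and the groups overlapped. For 8 microglial markers the sum was 208 to 241 CPM in *Lgmn*+/+-IR and 187 to 214 CPM in *Lgmn*-/--IR, with 0 of 8 called. The erythroid sum was 2273, 1728 and 234 CPM in the *Lgmn*-/--IR replicates, and its lowest library, replicate 3, had the highest *B2m*. Defining markers of T and NK cells (*Cd3e*, *Cd3d*, *Cd3g*, *Cd8a* and *Nkg7*) had at most 3 counts in every library, and *Gzmb* and *Klrb1c* had 0 counts in *Lgmn*+/+-IR and at most 4 in *Lgmn*-/--IR. *Cd4*, the only 1 of these 8 markers that could be tested, was counted 206 to 1227 times in *Lgmn*+/+-IR and 89 to 1042 times in *Lgmn*-/--IR (edgeR adjusted p = 0.716). The sum of the 8 was 4.83 to 27.0 CPM in *Lgmn*+/+-IR and 23.5, 1.92 and 2.64 CPM in *Lgmn*-/--IR replicates 1, 2 and 3. The part of endothelial cells, cells with *Cd4* and blood in the *B2m* difference was not tested.

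*B2m* is a gene on chromosome 2 at chr2:122147686-122153083 (GRCm38, plus strand). *Patl2* lies across it on the opposite strand and had at most 4 counts in any library. The 250 bases before its start site are shown because *B2m* had the largest difference of the 10 genes. Those before the RefSeq start of *Erap1*, which hold the same 9-base motif, stand beside them. *Erap1* had a log2 fold change of −0.07. Sequences are from RefSeq (GRCm38.p6), and capitals mark motif matches, read on the plus strand.
B2m upstream, chr2:122147437-122147686: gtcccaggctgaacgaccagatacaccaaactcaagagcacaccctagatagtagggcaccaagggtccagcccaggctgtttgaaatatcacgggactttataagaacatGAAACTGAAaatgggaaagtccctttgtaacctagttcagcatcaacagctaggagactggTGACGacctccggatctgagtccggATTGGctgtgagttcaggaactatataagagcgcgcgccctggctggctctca
Erap1 upstream, chr13:74639603-74639852: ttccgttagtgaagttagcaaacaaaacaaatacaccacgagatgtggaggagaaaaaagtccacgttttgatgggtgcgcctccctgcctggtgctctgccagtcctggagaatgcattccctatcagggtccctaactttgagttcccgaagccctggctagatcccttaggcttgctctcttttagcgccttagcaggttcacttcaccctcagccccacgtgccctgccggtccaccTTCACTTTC
The first capitals of *B2m* match the core of the interferon-stimulated response element, searched as GAAANNGAA, at −139 to −131 from the start. The next match the core of the cyclic AMP response element (TGACG, −78 to −74) and the last, on the other strand, the CCAAT box that NF-Y binds (−53 to −49). In *Erap1* the response element core lies on the other strand in the last 9 bases before the RefSeq start. The GENCODE span of *Erap1* begins earlier, at 74639568, so the *Erap1* window lies within that span. On both strands, GAAANNGAA was found in 7.1% of 32851 upstream windows of this length, TGACG in 17.8% and CCAAT in 33.8%. The fourth motif searched, the gamma-activated site (TTCNNNGAA), was in 7.0% of windows and, among these genes, in *Psmb8*, at −97 to −89. *Tapbp* held 2 CCAAT boxes, and none of the 4 motifs was in the window of *Psmb10*. None of the matches in *B2m* overlaps another. A match only describes the letters in the window.

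**Figure D2:**
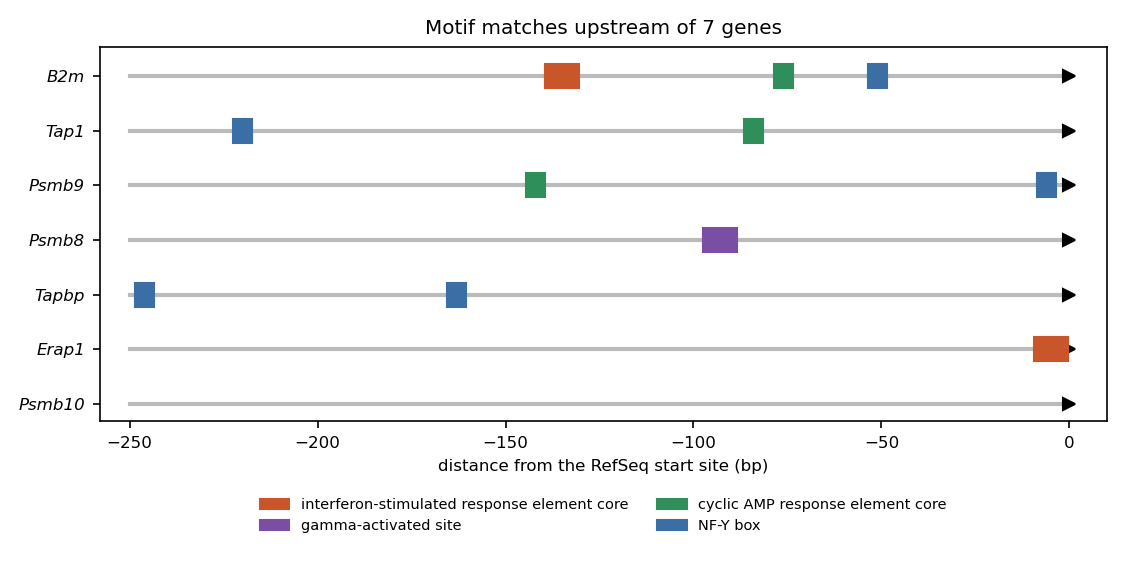
Matches to 4 motifs in the 250 bases before the RefSeq start site of 7 genes, in bp from the start (arrowhead), on either strand. *B2m* holds 3 of the 4 motifs, *Psmb8* alone holds the gamma-activated site, and *Psmb10* holds none of them.

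Both peptide transporter genes had overlapping groups and did not pass the test. *Tap1* (ENSMUSG00000037321), which with TAP2 forms the pump that carries peptides into the endoplasmic reticulum, had 105, 120 and 153 counts in *Lgmn*+/+-IR against 146, 114 and 118 in *Lgmn*-/--IR. The groups overlapped throughout, at 2.46, 2.80 and 3.36 against 3.29, 2.46 and 2.69 CPM. The log2 fold change was −0.03 (SE 0.20, 95% interval −0.51 to 0.44, edgeR adjusted p = 0.944). *Tap2* (ENSMUSG00000024339), the other subunit, had 317, 387 and 339 counts in *Lgmn*+/+-IR against 439, 393 and 367 in *Lgmn*-/--IR. Its log2 fold change was 0.16 (SE 0.14, 95% interval −0.17 to 0.49, edgeR adjusted p = 0.594), again with overlapping groups. These intervals still hold a change of up to about 0.5 on the log2 scale in either direction for *Tap1*, and the test shows no equality.

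*Tap1* and *Psmb9* are read from opposite strands from neighbouring starts at chr17, 226 bases apart in RefSeq (34187556 for *Tap1* and 34187330 for *Psmb9*). Of the 300 bases taken around each start, 275 belong to both windows. The stretch between both starts is shown since it is upstream of the RefSeq start of each gene. It is given on the plus strand and so in the direction of *Tap1*.
Psmb9 to Tap1, chr17:34187331-34187555: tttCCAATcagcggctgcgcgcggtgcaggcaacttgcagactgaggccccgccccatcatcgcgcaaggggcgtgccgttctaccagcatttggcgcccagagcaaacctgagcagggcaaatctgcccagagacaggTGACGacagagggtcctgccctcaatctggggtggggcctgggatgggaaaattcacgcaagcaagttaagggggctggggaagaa
It holds a CCAAT box and a TGACG core, in capitals. From *Tap1* they lie at −222 to −218 and −86 to −82, and from *Psmb9* at −8 to −4 and −144 to −140. *Tap1* and *Psmb9* had log2 fold changes of −0.03 and 0.35, neither of which passed the test. In the GENCODE annotation, *Psmb9* instead begins at 34187764, so this stretch lies within its span there, and the distances from *Psmb9* hold for the RefSeq start only. The GENCODE spans of *Tap1* and *Psmb9* overlap by 212 bases on opposite strands, and whether counting used strand is not given in the sources used here.

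Tapasin bridges the transporter and the class I heavy chain, and its gene *Tapbp* (ENSMUSG00000024308) had 1206, 1308 and 1266 counts in *Lgmn*+/+-IR against 1494, 1571 and 1405 in *Lgmn*-/--IR. All *Lgmn*-/--IR libraries were higher, at 28.9 ± 1.46 against 33.2 ± 1.00 CPM (n = 3), a 1.15-fold difference. The log2 fold change of 0.20 (SE 0.09, 95% interval −0.01 to 0.41) did not pass, with an edgeR adjusted p of 0.286. *Zbtb22* lies within the span of *Tapbp* on the same strand and had 1832 to 2120 counts per library, so reads could have been split between them. *Tapbpl* (ENSMUSG00000038213) encodes TAPBPR, a tapasin relative that edits peptides outside the loading complex. It had 316, 303 and 317 counts in *Lgmn*+/+-IR against 302, 274 and 293 in *Lgmn*-/--IR. At 7.41, 7.08 and 6.97 against 6.80, 5.90 and 6.68 CPM, the groups did not overlap, and *Lgmn*-/--IR was the lower. The log2 fold change was −0.15 (SE 0.13, 95% interval −0.44 to 0.15, edgeR adjusted p = 0.577). *Vamp1*, with 6313 to 8516 counts, lies across *Tapbpl* on the opposite strand.

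The immunoproteasome subunits had log2 fold changes of both signs, and 0 of 3 passed the test. *Psmb8* (ENSMUSG00000024338), which encodes beta5i, had 80, 113 and 107 counts in *Lgmn*+/+-IR against 111, 127 and 100 in *Lgmn*-/--IR. The groups overlapped, and the log2 fold change was 0.13 (SE 0.20, 95% interval −0.34 to 0.60, edgeR adjusted p = 0.769). *Psmb9* (ENSMUSG00000096727), for beta1i, had 38, 63 and 60 counts in *Lgmn*+/+-IR against 95, 78 and 39 in *Lgmn*-/--IR. Here replicate 3 of *Lgmn*-/--IR was as low as the lowest *Lgmn*+/+-IR library, both at 0.89 CPM, and the interval was wide (log2 fold change 0.35, SE 0.37, 95% interval −0.51 to 1.21, edgeR adjusted p = 0.653). *Psmb10* (ENSMUSG00000031897), for beta2i, was the most abundant of these subunits and had 1628, 1443 and 1444 counts in *Lgmn*+/+-IR against 1110, 1790 and 1133 in *Lgmn*-/--IR. Replicates 1 and 3 of *Lgmn*-/--IR, at 25.0 and 25.8 CPM, were below all *Lgmn*+/+-IR libraries (31.8 to 38.2 CPM), and replicate 2, at 38.6 CPM, was above them. The log2 fold change of *Psmb10* was −0.21 (SE 0.18, 95% interval −0.64 to 0.22, edgeR adjusted p = 0.579), and without that replicate it was −0.44 with an edgeR adjusted p of 0.112. *Lgmn*-/--IR replicate 2 thus had the lowest *B2m* and the highest *Psmb10* of its group.

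Each of these subunits takes the place of a constitutive one, *Psmb8* of *Psmb5*, *Psmb9* of *Psmb6* and *Psmb10* of *Psmb7*, and FPKM allowed them to be set against each other per length. *Psmb8* was at 1.52, 1.99 and 1.82% of *Psmb5* FPKM in *Lgmn*+/+-IR against 1.48, 1.23 and 1.22% in *Lgmn*-/--IR. All *Lgmn*-/--IR ratios were lower (1.78 ± 0.23% against 1.31 ± 0.15%, n = 3, two-sided exact permutation p = 0.10, adjusted over 3 ratios 0.30). With 3 against 3 this test cannot go below 0.10. The FPKM of *Psmb8* itself was 1.27 in *Lgmn*+/+-IR and 1.32 in *Lgmn*-/--IR. *Psmb5* had 2791, 3018 and 3234 counts in *Lgmn*+/+-IR against 3973, 5386 and 4315 in *Lgmn*-/--IR, all higher, with a log2 fold change of 0.55 (SE 0.12, edgeR adjusted p = 0.0521, DESeq2 adjusted p = 0.00295). *Psmb9* was at 0.675 ± 0.115% of *Psmb6* in *Lgmn*+/+-IR and 0.922 ± 0.343% in *Lgmn*-/--IR (exact permutation p = 0.40, adjusted 0.60, n = 3). *Psmb10* reached 29.8 ± 4.21% of *Psmb7* in *Lgmn*+/+-IR and 29.5 ± 3.53% in *Lgmn*-/--IR (exact permutation p = 1.0, n = 3). In both genotypes, then, *Psmb8* and *Psmb9* were at under 2% of their constitutive counterparts, whereas *Psmb10* was far closer to *Psmb7*. *Psmb6* and *Psmb7* had log2 fold changes of −0.07 and −0.24 and edgeR adjusted p values of 0.793 and 0.332.

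**Figure D3:**
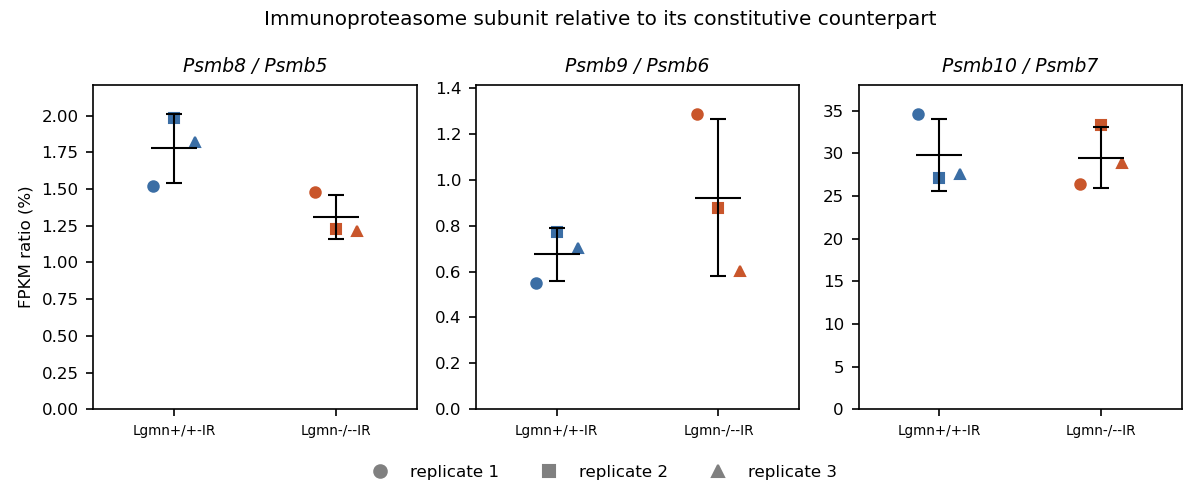
FPKM of each immunoproteasome subunit as a percentage of the constitutive subunit that it replaces, per library (markers are replicates, bar and whisker are mean ± SD, n = 3). *Psmb8* over *Psmb5* separates the genotypes, at 1.52 to 1.99% and 1.22 to 1.48%, and the other ratios overlap.

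*Erap1* (ENSMUSG00000021583) encodes the aminopeptidase that trims peptides in the endoplasmic reticulum, and it had 329, 318 and 327 counts in *Lgmn*+/+-IR against 344, 229 and 377 in *Lgmn*-/--IR. In CPM it was 7.71, 7.43 and 7.19 against 7.74, 4.93 and 8.59, so replicate 2 of *Lgmn*-/--IR was again apart from the other two of its group and the groups overlapped. The log2 fold change was −0.07 (SE 0.21, 95% interval −0.57 to 0.43, edgeR adjusted p = 0.885), and its sign turned to 0.14 without that replicate. *Nlrc5* (ENSMUSG00000074151), the transactivator of class I genes, was the lowest of the 10. It had 10, 30 and 16 counts in *Lgmn*+/+-IR against 27, 17 and 17 in *Lgmn*-/--IR. A change in it could not be resolved with so few reads, as the 95% interval of its log2 fold change ran from −1.02 to 1.19 around 0.08 (SE 0.47, edgeR adjusted p = 0.942).

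**Figure D4:**
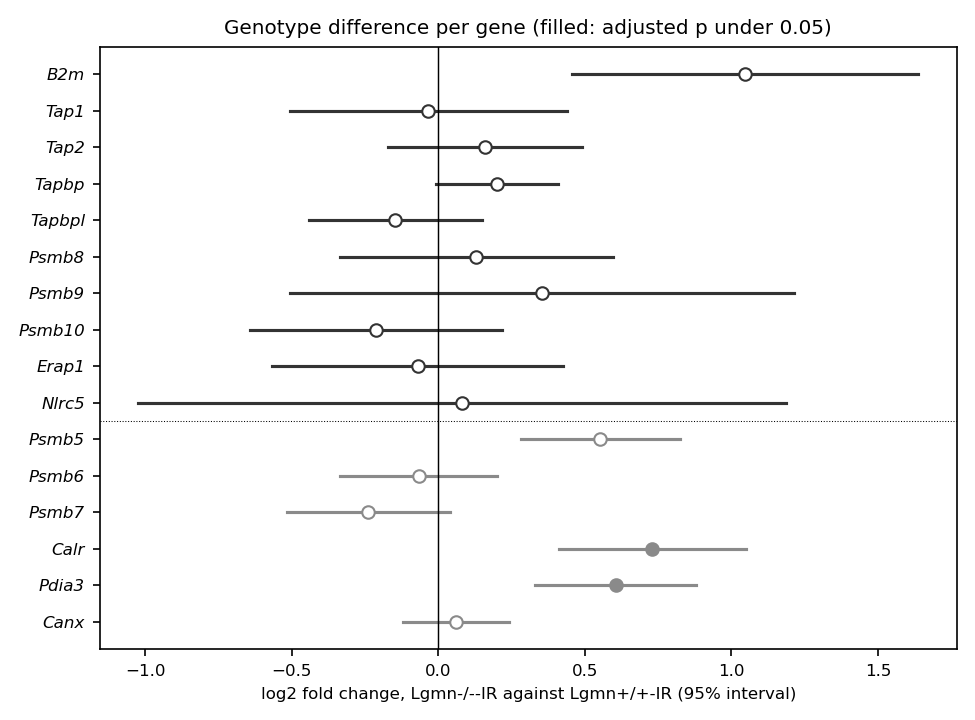
Log2 fold change of *Lgmn*-/--IR against *Lgmn*+/+-IR with its 95% interval from the edgeR fit, for the 10 genes (above the dotted line), the constitutive catalytic subunits and the main chaperones. Filled points passed an adjusted p under 0.05, which *Calr* and *Pdia3* did and none of the 10 did.

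The order of levels per length was much the same in both genotypes. In *Lgmn*+/+-IR the mean FPKM was 44.3 for *B2m*, 27.5 for *Psmb10*, 10.8 for *Tapbp*, 2.72 for *Tapbpl* and 2.15 for *Tap2*, and neighbours in this order did not overlap between libraries. Below them came *Erap1* at 1.38, *Psmb8* at 1.27, *Tap1* at 0.971 and *Psmb9* at 0.793 FPKM, each overlapping the next, and *Nlrc5* was last at 0.122 FPKM. The RNA of *B2m* was thus at a far higher level per length than that of either transporter gene, and protein was not measured here. In *Lgmn*-/--IR the mean FPKM of *B2m* was 88.0, of *Psmb10* 22.8 and of *Tapbp* 12.3, and *Tap2* (2.46) and *Tapbpl* (2.38) changed places with overlapping libraries. *Psmb8* (1.32), *Erap1* (1.16), *Psmb9* (1.02) and *Tap1* (0.849) followed with overlapping values, and *Nlrc5* again came last at 0.116 FPKM.

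*Tapbp*, *Psmb9*, *Tap1*, *Psmb8* and *Tap2* lie in this order within chr17:33915899-34216321 (GRCm38), in the H2 complex, the mouse MHC. That interval held 37 genes of the table, of which 24 were tested and 1, *H2-Ke6*, was called. The other 5 members lie elsewhere. *Tapbpl* is on chromosome 6 (chr6:125223933-125231860), *Erap1* on chromosome 13 (chr13:74639568-74693201), and *Nlrc5* (chr8:94434356-94527272) and *Psmb10* (chr8:105935735-105938444) are both on chromosome 8.

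Among the partners of these genes, the endoplasmic reticulum chaperones held calls in the higher direction only. Of 8 chaperones and other loading factors, 2 rose and 0 fell, where 3.33% of all genes tested were called. *Calr*, for calreticulin, had 13843, 13022 and 13763 counts in *Lgmn*+/+-IR against 21467, 20430 and 27293 in *Lgmn*-/--IR, a log2 fold change of 0.73 (SE 0.14, edgeR adjusted p = 0.0356). *Pdia3*, for ERp57, which pairs with tapasin, went from 176 ± 5.67 to 267 ± 39.2 CPM (n = 3, log2 fold change 0.61, SE 0.12, edgeR adjusted p = 0.0403). Both genes were higher in 3 of 3 *Lgmn*-/--IR libraries, with replicate 3 highest. *Canx*, for the related chaperone calnexin, had a log2 fold change of 0.06 (edgeR adjusted p = 0.716), and the calls of *Calr* and *Pdia3* were lost under 7 and 8 of 14 other settings.

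The class I heavy chains, the partners of beta-2-microglobulin, split in both directions. Of 10 tested, 2 rose (*H2-D1*, log2 fold change 1.89, and *H2-T10*, 3.42) and 2 fell (*H2-T22*, −0.71, and *H2-T23*, −2.65). These 4 calls among 10 stand beside 3.33% of all genes tested. At an unadjusted edgeR p under 0.05 there were 9 of 10, against 18.6% of all genes tested. Among those 9 but not called, *H2-Q4*, *H2-Q6* and *H2-Q7* were higher and *H2-M3* and *H2-T24* lower in *Lgmn*-/--IR. The call of *H2-T22* was lost under 9 of 14 other settings, and the other 3 calls were kept under all 14. *H2-K1*, the other classical heavy chain listed, had a log2 fold change of 0.03 (SE 0.38, edgeR adjusted p = 0.975). Class I heavy chains are a multigene family whose alleles differ between mouse strains. How reads shared by its members were counted is not given in the sources used here, and its part in these values was not tested. The summed level of the 10 heavy chains was 60.4 to 68.9 CPM in *Lgmn*+/+-IR and 139 to 191 CPM in *Lgmn*-/--IR. From *Lgmn*+/+-IR to *Lgmn*-/--IR, mean CPM went from 28.5 to 106 for *H2-D1* and from 2.38 to 25.5 for *H2-T10*. It went from 11.1 to 6.81 for *H2-T22* and from 6.95 to 1.11 for *H2-T23*. The higher sum is therefore not a rise of all 10, of which 6 had a positive log2 fold change.

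The remaining proteasome lists had no call. Of 3 constitutive catalytic subunits, 11 other subunits of the 20S core and 9 activators and assembly factors, 0 passed the edgeR test, with 1, 0 and 3 at an unadjusted p under 0.05 against 18.6% of all genes. The median log2 fold change was −0.07 for the catalytic subunits, −0.09 for the other core subunits and −0.01 for the activators and assembly factors. *Psme1* and *Psme2*, which encode the PA28 activator that interferon also raises, had log2 fold changes of 0.14 and −0.0021 and were named after their values were seen. *Psme4*, for PA200, was at −0.40 (edgeR adjusted p = 0.184) and was also chosen after its values were seen.

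No regulator or interferon target on the lists passed the test in the higher direction. Of 21 tested regulators of class I transcription, among them RFX, NF-Y, STAT and IRF genes, 0 rose and 1 fell, *Stat2* (log2 fold change −0.55, SE 0.11, edgeR adjusted p = 0.0496), which carries interferon signals to the nucleus. That call was lost under 13 of 14 other settings. Of 16 interferon stimulated genes, 0 rose and 1 fell, the guanylate-binding protein gene *Gbp3* (log2 fold change −0.94, SE 0.18, edgeR adjusted p = 0.0374), a call lost under 8 of 14 other settings. At an unadjusted p under 0.05 stood 4 of 21 regulators and 4 of 16 interferon stimulated genes, against 18.6% of all genes tested. Among regulators, *Irf2* and *Nfya* were higher and *Stat2* and *Nfyb* lower. Among interferon stimulated genes, *Ifit3* was higher and *Gbp3*, *Irf7* and *Usp18* lower. *Ifit3* fell just short of a call (log2 fold change 0.77, SE 0.16, edgeR adjusted p = 0.0546), with groups that did not overlap. The medians were 0.02 for the regulators and −0.07 for the interferon stimulated genes, beside −0.01 for all genes tested.

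**Figure D5:**
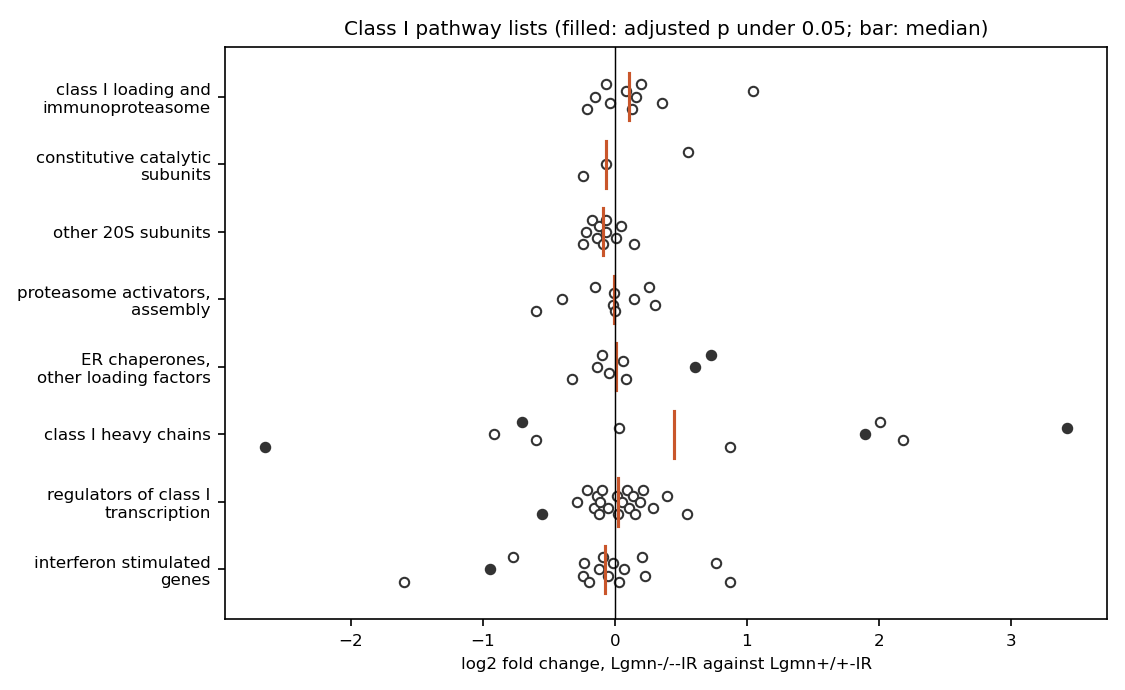
Log2 fold change of each tested gene in the 10-gene group and in 7 lists of its pathway, with the list median as a bar and filled points at an adjusted p under 0.05. The heavy chains spread from −2.65 to 3.42. Genes of the proteasome lists spread from −0.60 (*Psmg4*) to 0.55 (*Psmb5*), with list medians of −0.09 to −0.01.

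Markers of resident cells were also read, since class I genes differ between cell types. Of 7 neuronal, 8 microglial, 6 endothelial and 4 choroid plexus markers, 0 were called. The oligodendrocyte markers *Mog*, *Mag* and *Cnp* fell (log2 fold changes −0.91, −0.53 and −0.68), and of 6 astrocyte markers 1 rose, *Aqp4* (log2 fold change 0.55, edgeR adjusted p = 0.0374). The calls of *Mog*, *Mag*, *Cnp* and *Aqp4* were lost under 5, 8, 9 and 8 of 14 other settings. Of the blood leukocyte markers that could be tested, *Ly6c2* was called and fell (log2 fold change −3.31). *Jchain*, *Cd79a* and *Cd4* were not called (log2 fold changes 1.55, 0.13 and −0.80, edgeR adjusted p = 0.163, 0.891 and 0.716). From the list of *Ly6c2*, *Ccr2*, *S100a8* and *S100a9* had at most 8, 23 and 32 counts in any library. Whether *Ly6c2* tracks blood leukocytes here was not tested. The part of these cell types in the values of the 10 genes was not tested.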

How the data were processed

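Cortical polyA RNA of 3 *Lgmn*+/+-IR and 3 *Lgmn*-/--IR mice was sequenced. The authors filtered reads with Trimmomatic 0.36, mapped them with HISAT2 to GRCm38 (per the submitters' processing notes) and computed expression with StringTie. The authors deposited raw counts of reads per gene, without normalization, and FPKM for the same genes. The counter, the annotation and the use of strand are not given in the sources used here.

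Counts were normalised by TMM, filtered with filterByExpr and tested for genotype with the quasi-likelihood F-test of edgeR 4.0.16 (R 4.3.3), with Benjamini-Hochberg adjustment over 18345 genes. A gene was called at an adjusted p under 0.05. SEs come from the F statistic, and 95% intervals use its 7.19 degrees of freedom. Ratios of FPKM were tested with exact permutation tests in scipy 1.17.1. Of 51826 gene IDs, 51633 were found in GENCODE M21 (GRCm38), which gave positions. RefSeq upstream windows were found for 7 of the 10 genes, and *Tap2*, *Tapbpl* and *Nlrc5* were not among them. Total counts were 41874462 to 46829441 per library, and SEs and intervals come from the spread between libraries.

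Groups follow the genotype labels. Same-numbered samples did not deviate together, so the replicate number was not used in the main test. The genes, lists and tests were chosen with earlier results of these data known. Named were all 10 genes, *Lgmn*, *Psmb5*, *Psmb6*, *Psmb7*, *Calr*, *Canx*, *Pdia3* and list members that were called. Some other list members were named after their values were seen. Tests were tried on simulated counts. The alternatives were DESeq2 1.42.0, limma-voom and limma 3.58.1 on log2(FPKM + 1) and log2(FPKM + 0.1), DESeq2-type size factors in edgeR, no filter on low counts, at least 10 counts in every sample, the replicate number as a block, and each library left out in turn. Some listed markers are not reported here.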

Additional observations from a re-analysis of the deposited data

How the results depend on the processing

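Of 140 values of the 10 genes under 14 other settings, 130 kept their direction and side of the threshold, 2 passed it (*B2m*, with DESeq2 and without *Lgmn*-/--IR replicate 2) and 8 turned sign without passing. The number of the 10 genes called was 1 with DESeq2, and 0 to 1 with each library left out. *B2m* stayed positive throughout, at 0.89 to 1.31 on the log2 scale. The number of all genes called was 404 without a filter on low counts, 406 with at least 10 counts in every sample and 1308 with DESeq2. With each library left out it was 223 to 500 (223 without *Lgmn*+/+-IR replicate 2 and 500 without *Lgmn*-/--IR replicate 2). The cause was not tested.

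With the replicate number as a block, 150 genes were called and *B2m* had a log2 fold change of 0.98 (edgeR adjusted p = 0.185). Deviations of same-numbered samples correlated at −0.296, −0.048 and −0.047, so no shared deviation was seen. Whether same-numbered samples shared a litter or a batch was not tested.

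With each library left out, the log2 fold change was −0.205 to 0.621 for *Nlrc5*, −0.16 to 0.095 for *Tap1*, −0.231 to 0.138 for *Erap1* and −0.126 to 0.024 for *Psmb6*, and the log2 difference of the *Psmb10* to *Psmb7* ratio was −0.10 to 0.10. *Nlrc5* was at −0.0068 with log2(FPKM + 1) and at −0.0051 with log2(FPKM + 0.1), and the *Psmb10* to *Psmb7* ratio at 0.0055 in CPM. The counts of *Nlrc5* (10 to 30) and *Psmb9* (38 to 95) limit their precision.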
